A study of Homo sapiens with 12 samples.

Results

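The comparison is between PLS-123 at 1 μM and ibrutinib at 1 μM in OCI-Ly7 cells after 24 hours, with RNA measured on Affymetrix U133 Plus 2.0 arrays. The arrays that enter it are those with these labels, 3 with PLS-123 and 3 with ibrutinib at that dose, so 6 of the 12 samples of the series. The other 6 are 3 of vehicle and 3 of ibrutinib at 10 μM, and they are used for the spread between arrays and as points of reference. All cells are of 1 established line from a human diffuse large B-cell lymphoma, with no host tissue, and the labels do not say whether arrays A, B and C of a group came from separate cultures, so a p-value here measures the spread between these arrays. Apart from the compound, the labels name no difference in handling between the groups. In such bulk RNA, fewer cells carrying a transcript and less of it per cell cannot be told apart.

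The B-cell receptor (BCR) signals through its CD79 chains to the kinases LYN and SYK, and the adaptor BLNK then brings Btk to phospholipase C gamma 2. That enzyme opens the calcium, Ras and NF-κB branches, while the PI3K, AKT and mTOR branch feeds growth and amino acid uptake. Ibrutinib binds a cysteine of Btk covalently and shuts the kinase off, and PLS-123 was made as another Btk inhibitor with a different range of targets. Germinal centre lymphoma lines such as OCI-Ly7 carry a program headed by the repressor BCL6 alongside the BCR.

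All values below are log2 intensities of single arrays, given in the order A, B, C, and a difference is PLS-123 minus ibrutinib on that scale. Of 54613 probe sets tested with limma, 4333 were lower with PLS-123 and 2502 were higher at a Benjamini-Hochberg adjusted p below 0.05, which is 7.93% and 4.58% of those tested. Read as 1 probe set per gene, the one with the highest mean over the 12 arrays, 2001 of 19775 genes were lower (10.1%) and 1143 were higher (5.78%). These gene shares, with the limit given in the next paragraph, are the background against which each list of genes below is read. Without array B of ibrutinib 2698 probe sets were lower. The methods' t-test, which borrows no variance across probe sets, gave 1103 lower and 731 higher probe sets, and of the distinct genes in the lists below it called 96 lower and 43 higher, where limma called 223 and 103. Many list counts of 5 or fewer moved by over 1.5 times with an array left out, and larger ones that did so are given with the array. The lower calls made up 63.4% of the called probe sets, but 53% after quantile normalization and 51.2% after centring on the control probe sets, steps that moved the median of all probe sets by 0.011 and 0.044.

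Most of these differences were small. The median called difference was -0.44 among the lower probe sets and 0.53 among the higher ones. Past 4-fold, 41 probe sets were lower and 49 were higher. For 46273 probe sets, 84.7% of those tested, the 95% interval of the difference lay within 1.5-fold, and 1933 of these were called all the same. Past 1.5-fold with an unadjusted p below 0.05, the numbers of lower and higher probe sets were close to equal, 1081 (1.98%) and 1100 (2.01%). A probe set is called dim where it averaged under 3.87, the value that splits the probe sets into equal parts. With ibrutinib 50.1% of all probe sets were dim, against 21% of those called higher and 4.87% of those called lower. In most lists below the greater part of the genes was not dim, from 18 of 35 interferon-stimulated genes to 40 of 40 mitosis genes. The gene shares above count dim genes and so are a low background for such lists. A test of only the 27306 probe sets that were not dim called 5627 lower and 2727 higher. Some lists lay close to the shares of that test, which counted probe sets and adjusted over fewer. Among them were mitosis genes (20% lower and 7.5% higher), p53 targets (20.8% and 12.5%), MAP kinase genes (17.6% and 11.8%) and migration receptors (18.9% and 13.5%). NRF2 (17.9% and 3.57%), heat shock (16.7% and 5.56%) and replication genes (12.5% and 2.5%) lay under them. Counts of these lists are not read as a result about their members. Of the 36 genes that were higher by over 4-fold, 17 were dim with ibrutinib.

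**Figure D1:**
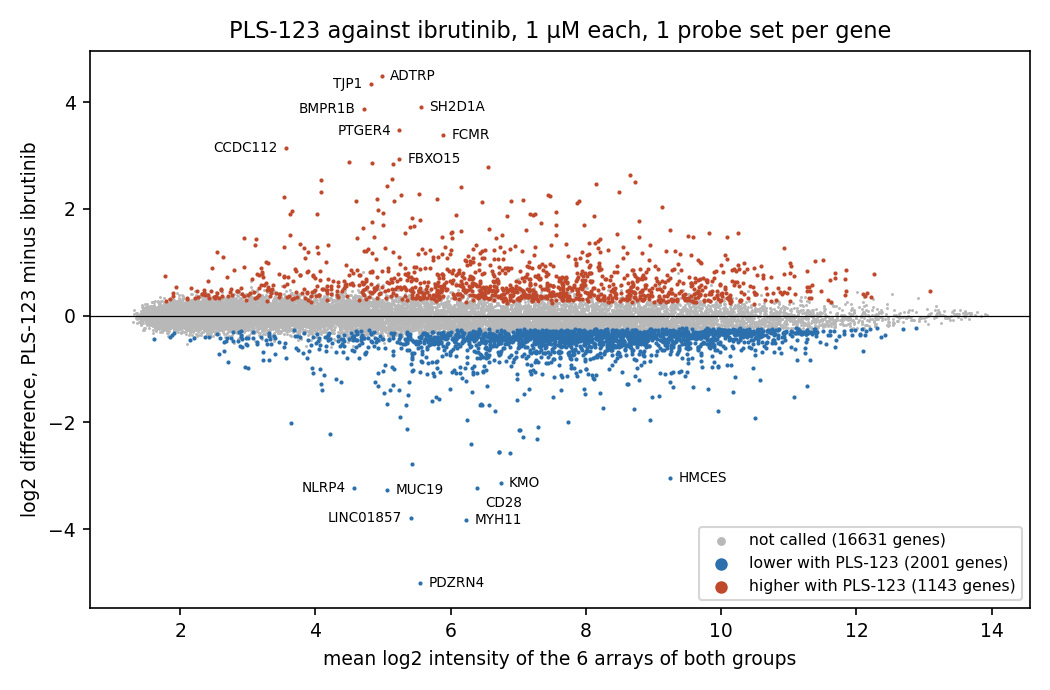
Difference between PLS-123 and ibrutinib at 1 μM (log2, y axis) against the mean log2 intensity (x axis), 1 point per gene, with called genes coloured. The 2001 lower genes spread over moderate and bright levels, and the highest points among the 1143 higher genes include genes of low mean intensity.

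The RNA of the groups was not fully alike. The log2 ratio of the 3' to the 5' control probe sets for ACTB rises as RNA degrades or is copied less far. It was 2.87, 2.55 and 2.58 with ibrutinib and 2.83, 2.81 and 3.17 with PLS-123, a difference of 0.266 (exact permutation test, two-sided p = 0.3). For GAPDH the log2 ratio was 0.306, 0.275 and 0.241 with ibrutinib and 0.438, 0.442 and 0.466 with PLS-123, and these arrays did not overlap (exact permutation test, two-sided p = 0.1, the smallest that 3 against 3 allows). Its part in the differences was not tested directly. With the ACTB ratio as a covariate, 1695 probe sets were lower and 1279 were higher, and counts of lists that this covariate moves by over 1.5 times are given beside the lists below.

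Arrays of 1 compound resembled each other more than arrays of the other compound. Over the 27306 probe sets that were not dim, Pearson's r between arrays was 0.9913 to 0.9958 within ibrutinib, 0.9946 to 0.996 within PLS-123 and 0.9777 to 0.9851 between them. The cells carried the markers of their label. Of 10 B-cell markers measured, only BANK1 was dim, while CD20 (MS4A1) stood at 12.38 and CD79B at 11.18 in vehicle. With PLS-123, 5 of the 10 were lower and 2 were higher, and 3 and 1 with the ACTB covariate. Of 22 T and NK cell markers 10 were not dim, among them CD3E, CD4 and CD5, while CD2, CD3D and CD3G were dim. Of 12 myeloid markers 3 were not dim, CSF1R, ITGAM and FCN1, while CD14 and LYZ were dim, and 0 of the 12 were called. Of 17 stromal and epithelial markers ACTA2 alone was called, higher with PLS-123 in 1 of its 3 probe sets (adjusted p = 0.028, but 0.12 without array C of ibrutinib). ACTA2 was dim in both groups, at means of 2.97 with ibrutinib and 3.58 with PLS-123. The summed intensity of the list was 584.1 to 600.8 with ibrutinib and 578.7 to 632.2 with PLS-123. The summed intensity of the T and NK cell markers was 1895 to 1952 with ibrutinib and 1339 to 1472 with PLS-123. LCK, which carried this fall, stood at 10.59, 10.65 and 10.63 with ibrutinib and at 10.01, 10.01 and 9.89 with PLS-123. ZAP70 was higher, and over the 22 markers the median difference was 0.11, with 5 below 0.

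The other 6 arrays were then placed on a line running from the ibrutinib mean (0) to the PLS-123 mean (1) over the called probe sets. The vehicle arrays lay at -0.062, -0.076 and -0.044, beside ibrutinib at 1 μM. The vehicle mean was nearer to ibrutinib than to PLS-123 for 97.6% of the lower and 97.3% of the higher probe sets. Arrays of ibrutinib at 10 μM lay at 0.84, 0.804 and 0.807, with a group mean of 0.729 over the lower and 0.91 over the higher probe sets. That dose differs from the one of PLS-123, so these positions are given side by side and were not tested. SGPP1, which encodes a phosphatase of sphingosine 1-phosphate, was the only called gene past 1.5-fold whose vehicle mean was nearer to PLS-123. It read 8.43, 7.56 and 7.84 with ibrutinib, 7.34, 7.07 and 7.41 with PLS-123 and 7.57, 7.43 and 7.62 in vehicle (difference -0.67, adjusted p = 0.021), with arrays A and C of ibrutinib above the vehicle arrays, array B among them and the PLS-123 arrays below them, and the call was lost without array B of PLS-123 (adjusted p = 0.085).

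**Figure D2:**
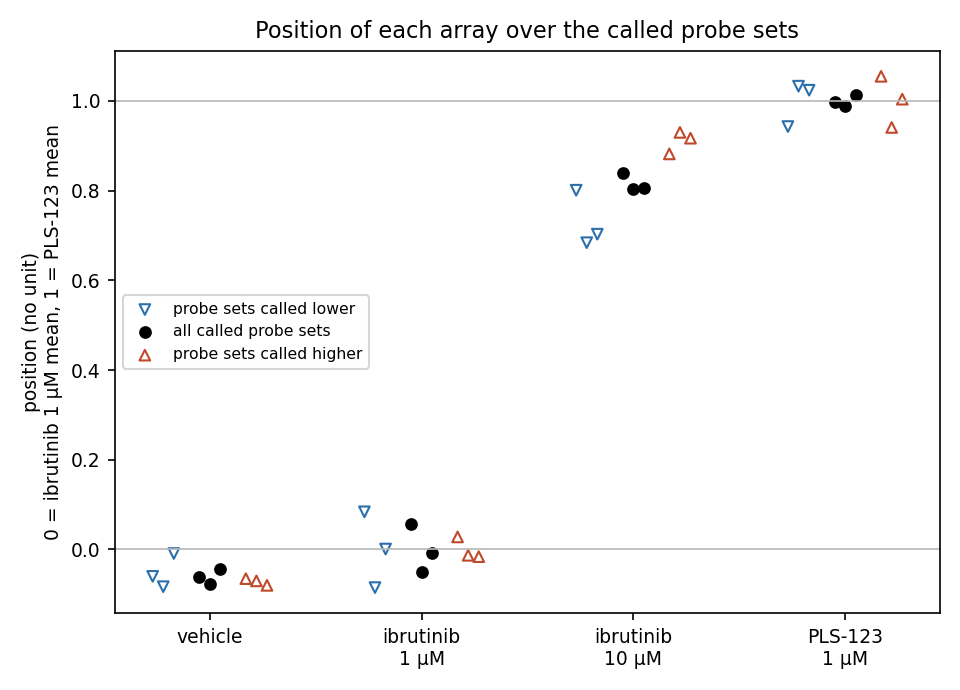
Position of each of the 12 arrays between the mean of ibrutinib at 1 μM (0) and that of PLS-123 at 1 μM (1), over all called, lower called and higher called probe sets, 1 point per array. Vehicle arrays sit just below 0 over all called probe sets, and those of ibrutinib at 10 μM between 0.804 and 0.84.

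The transcripts that were lowest with PLS-123 relative to ibrutinib came from a mixture of B-cell, signalling and tissue genes. PDZRN4, a ubiquitin ligase with PDZ domains, stood at 8.31, 7.79 and 8.05 with ibrutinib and at 2.91, 3.09 and 3.14 with PLS-123 (32.1-fold, difference -5.003 ± 0.14 SE, adjusted p = 1.4e-10). The smooth muscle myosin heavy chain MYH11 stood at 8.18, 8.22 and 8.03 against 4.71, 3.69 and 4.57 (14.2-fold, adjusted p = 4.3e-06), in 3 of its 7 probe sets, and it was not called with their median. CD28, the costimulatory receptor of T cells and plasma cells, stood at 8.13, 7.93 and 7.95 against 4.91, 4.54 and 4.88 (9.38-fold). In each of the 3 the groups were separated by at least 3 log2 units, so PDZRN4 with PLS-123 lay at the level of dim probe sets while CD28 did not.

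Among the next largest falls, NLRP4, a member of the NOD-like receptor family, stood at 6.14, 6.34 and 6.06 with ibrutinib and at 2.81, 3.07 and 3.01 with PLS-123. HDAC9, a class IIa histone deacetylase, stood at 6.98, 6.69 and 6.78 against 3.73, 4.48 and 3.87. PNOC, the precursor of the neuropeptide nociceptin, stood at 8.31, 8.59 and 8.39 against 6.05, 6.15 and 6.15. The Toll-like receptor TLR10, which is largely a B-cell gene, stood at 8.29, 8.14 and 8.19 against 5.96, 6.003 and 5.87, and no arrays of the compounds overlapped in these 4 genes. The collagen cross-linking enzyme LOXL2 differed by -2.55, but in 1 of its 4 probe sets, so that call depends on the probe set.

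The largest rises were in genes that ibrutinib at 1 μM left near the level of dim probe sets. ADTRP, a hydrolase of fatty acid esters, stood at 2.44, 2.75 and 3.01 with ibrutinib and at 7.26, 7.24 and 7.17 with PLS-123 (22.5-fold). The tight junction scaffold TJP1 stood at 2.68, 2.59 and 2.65 against 7.06, 6.96 and 6.95 (20.4-fold). SH2D1A, the adaptor SAP of SLAM receptors, stood at 3.11, 4.20 and 3.51 against 7.66, 7.59 and 7.31, and all 4 of its probe sets were called. In all 3 the ibrutinib arrays were at or near the dim level and the PLS-123 arrays were well above it, so the fold depends on the background correction that set the low end.

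Several receptors were among the other large rises. PTGER4, a prostaglandin E2 receptor, stood at 3.18, 3.87 and 3.46 with ibrutinib and at 6.97, 6.91 and 7.06 with PLS-123, in 1 of its 2 probe sets. FCMR, the Fc receptor for IgM, stood at 4.16, 4.10 and 4.32 against 7.58, 7.65 and 7.52 (difference 3.39 ± 0.18 SE). CD69, the early activation antigen that holds lymphocytes in tissue, stood at 3.05, 2.67 and 2.68 against 5.39, 5.43 and 5.23. The BMP receptor BMPR1B differed by 3.87, and ID1, a textbook target of BMP signalling, went from 3.17, 3.33 and 3.72 to 6.52, 6.07 and 6.24. PTPRE, a receptor-type tyrosine phosphatase, was already above the dim level with ibrutinib, at 5.02, 5.26 and 5.22, and stood at 7.97, 7.92 and 7.96 with PLS-123. The ribosomal RNA precursor RNA45SN5 differed by 2.64, but near-identical copies of this gene share its sequence, so the value is uncertain.

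**Figure D3:**
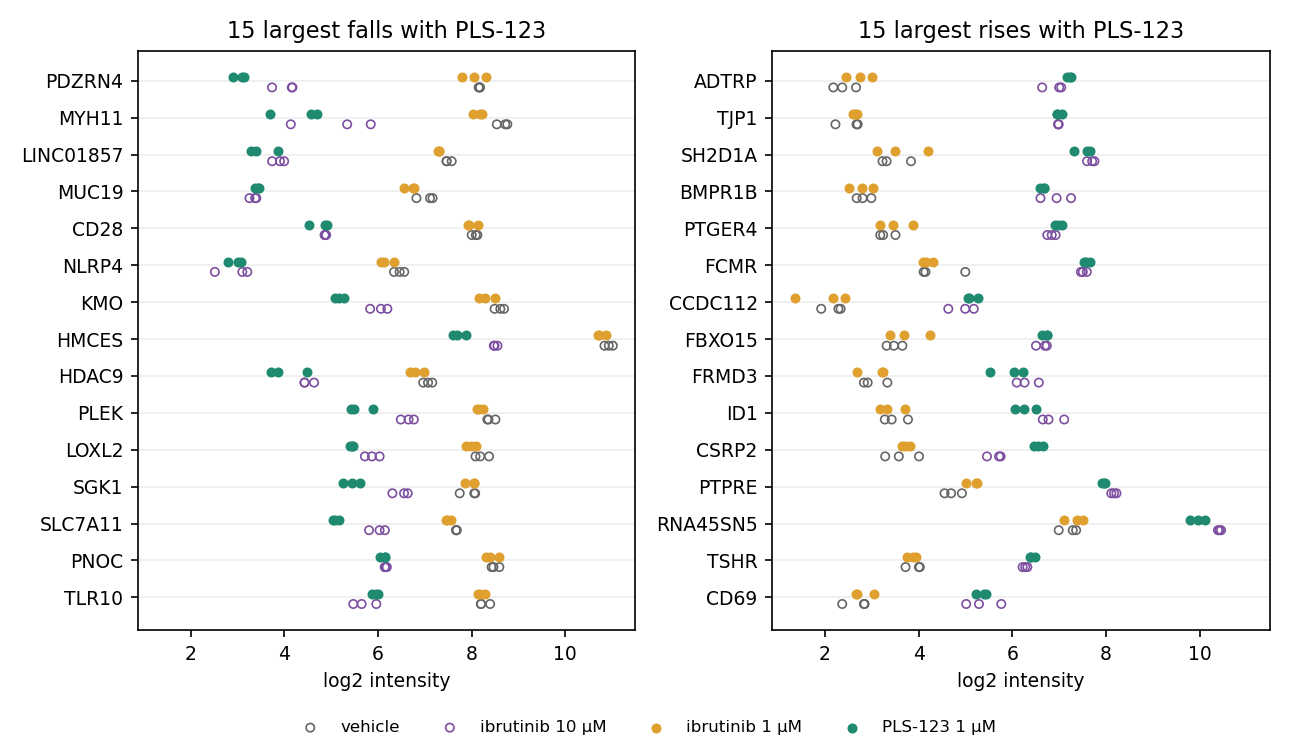
Log2 intensity (x axis) of the 15 genes that were lowest and the 15 that were highest with PLS-123 relative to ibrutinib at 1 μM, 1 point per array, filled for these groups and open for vehicle and ibrutinib at 10 μM. The filled points of the compounds do not overlap in any of the genes, as in PDZRN4 (about 8 against 3) and ADTRP (below 3.1 against above 7.1).

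Genes of amino acid supply were among the lists furthest below the background. The transcription factor ATF4 is translated when amino acids are scarce or the endoplasmic reticulum is under stress, and drives genes for amino acid synthesis, import and tRNA charging. Of 36 measured genes of this list, 16 were lower with PLS-123 and 1, the cystathionine gamma-lyase gene CTH, was higher, with a median difference of -0.28 against -0.018 over all genes. The call of CTH (0.29) was lost without array B of ibrutinib (adjusted p = 0.12). With the ACTB covariate 11 were lower and 0 higher. SLC7A11, the cystine importer, stood at 7.45, 7.56 and 7.47 with ibrutinib and at 5.08, 5.03 and 5.17 with PLS-123. CHAC1, an enzyme that breaks down glutathione, stood at 7.84, 8.2 and 8.23 against 5.97, 5.96 and 5.91. The transcription factor ATF5 stood at 10.45, 10.52 and 10.53 against 9.16, 9.05 and 9.17, and the groups were well apart in all 3 genes.

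ASNS, which makes asparagine, stood at 10.93, 10.96 and 11.02 with ibrutinib and at 9.94, 9.99 and 10.02 with PLS-123 (1.98-fold, adjusted p = 1.2e-06), in 1 of its 2 probe sets. Smaller differences were called for the serine synthesis enzymes PSAT1 (-0.60) and PHGDH (-0.29), the proline enzyme PYCR1 (-0.47), and the leucine transporter chains SLC7A5 (-0.60) and SLC3A2 (-0.45). The call of PHGDH was lost without array B of ibrutinib (adjusted p = 0.15). The stress factor DDIT3, also known as CHOP, differed by -0.95. ATF4 itself was not called, at 12.24, 12.30 and 12.31 against 12.15, 12.05 and 12.07 (difference -0.19, 95% interval -0.35 to -0.03, adjusted p = 0.12). The pseudokinase TRIB3, another ATF4 target, was not called either (-0.24, interval -0.40 to -0.08).

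The enzymes that load amino acids onto tRNAs were lower as a set of small differences. Of 18 cytosolic aminoacyl tRNA synthetase genes and cofactors, 13 were lower and 0 higher, with a median of -0.36. They ranged from SARS1 (-0.61), for serine, to LARS1 (-0.23, adjusted p = 0.13 without array B of PLS-123), for leucine, and the interval lay within 1.5-fold for 10 of the 18. Fewer were called with the ACTB covariate, 7 lower and 0 higher. WARS1, for tryptophan, stood at 8.75, 8.99 and 8.93 with ibrutinib and at 8.49, 8.39 and 8.27 with PLS-123. IARS1, for isoleucine, stood at 11.92, 11.91 and 11.97 against 11.56, 11.54 and 11.54, a difference of -0.39 that was several times the spread of either group. KARS1, RARS1 and TARS1, for lysine, arginine and threonine, differed by 0.01, -0.06 and -0.04.

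Promoters of the lower genes are shown for the letters TGATGNAA, the core of the composite element to which ATF4 and C/EBP proteins bind, searched on both strands from 250 bases before to 50 after each start in RefSeq promoters of GRCh38.p14. These letters were in 1003 of 27305 promoters (3.7%). They were in 4 of the 14 lower genes of the ATF4 list with a promoter entry (28.6%) and in 4 of the 15 not called (26.7%). Among the tRNA synthetases they were in 4 of 11 lower genes (36.4%) and in 1 of 4 not called (25.0%). Members of these lists held the letters whether or not they were called. The stretches below, 5′ to 3′ on the strand of the gene, carry the match in capitals, TTGCATCA and TGATGCAA being the same letters read on opposite strands, and the genes they belong to were all lower with PLS-123, though BCAT1 (-0.33) was not called without array C of PLS-123 (adjusted p = 0.073). ASNS is at chr7:97872433-97872512 on the minus strand, CHAC1 at chr15:40953226-40953305 on the plus strand, and AARS1 (alanyl tRNA synthetase), IARS1 and BCAT1 (branched-chain aminotransferase) are on the minus strand at chr16:70289650-70289729, chr9:92293698-92293746 and chr12:24949106-24949185.
ASNS: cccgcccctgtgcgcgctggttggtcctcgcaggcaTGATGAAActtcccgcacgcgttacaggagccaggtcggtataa
CHAC1: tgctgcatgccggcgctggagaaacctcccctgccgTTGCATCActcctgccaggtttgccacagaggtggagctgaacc
AARS1: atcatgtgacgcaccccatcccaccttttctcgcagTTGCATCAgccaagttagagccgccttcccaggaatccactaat
IARS1: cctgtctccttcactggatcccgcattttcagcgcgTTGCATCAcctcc
BCAT1: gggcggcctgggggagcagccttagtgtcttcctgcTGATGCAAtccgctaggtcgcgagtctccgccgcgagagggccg

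**Figure D4:**
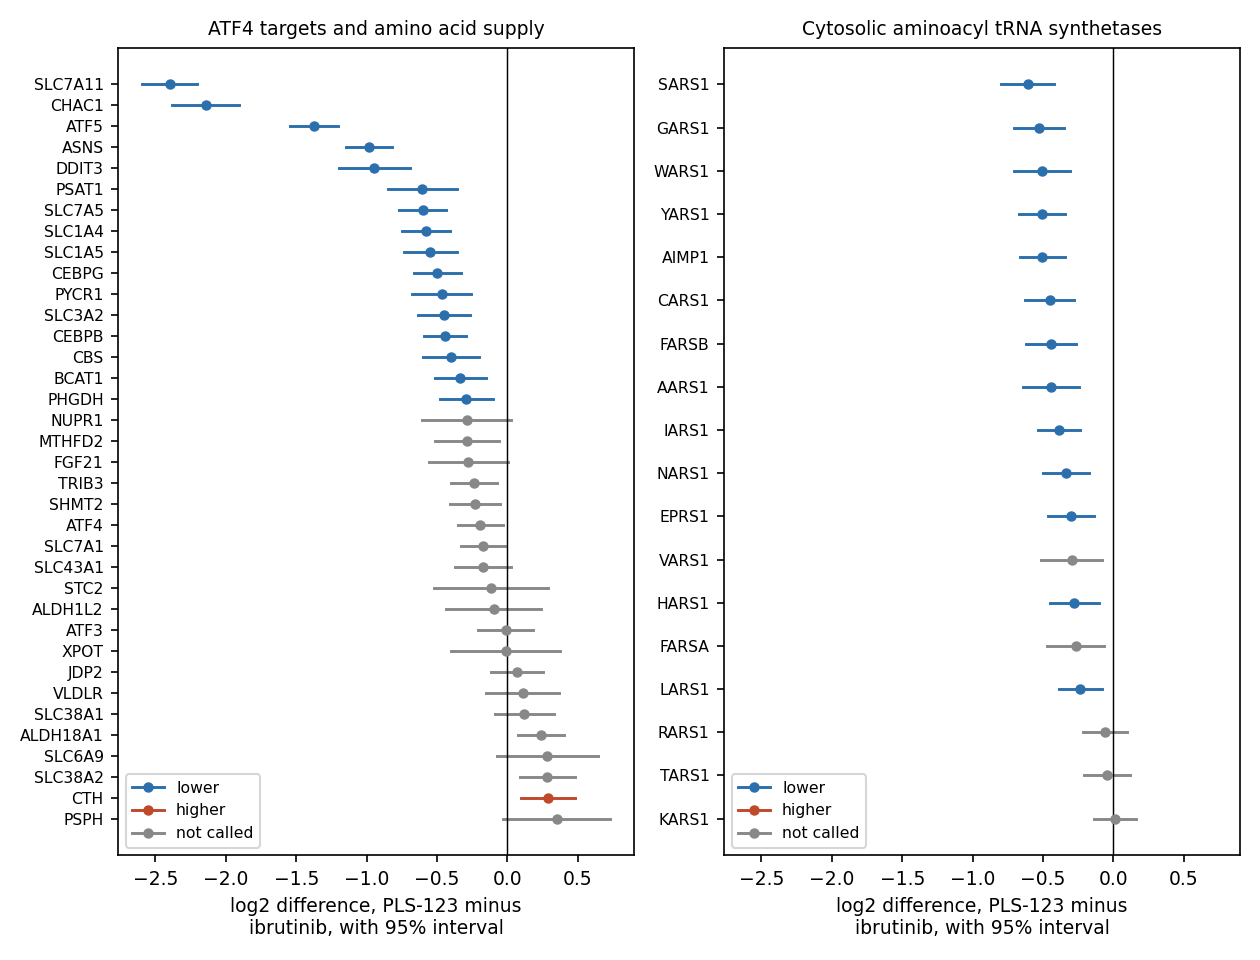
Difference between PLS-123 and ibrutinib at 1 μM (log2, x axis) with its 95% interval for each gene of amino acid supply and each tRNA synthetase gene. Of these, 16 and 13 genes were called lower, CTH alone was called higher, and ATF4 itself lies near 0 with an interval of -0.35 to -0.03.

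The nucleolar and MYC-driven genes that build ribosomes were lower by small amounts. Of 38 measured genes, 15 were lower and 0 higher, with a median of -0.26, but 34 of the 38 intervals lay within 1.5-fold and with the ACTB covariate 4 were lower. Without array B of ibrutinib 8 were lower, and 9 without array C of PLS-123. POLR3G, a subunit of RNA polymerase III, differed most, at 7.82, 7.69 and 7.61 with ibrutinib and 7.16, 7.02 and 7.09 with PLS-123. The processing factors UTP20 (-0.47), RRP9 (-0.45) and NOP14 (-0.41) and the polyamine enzymes ODC1 (-0.37) and SRM (-0.35) were lower. Nucleolin (NCL) and nucleophosmin (NPM1) both differed by -0.06. MYC itself, the driver of these genes, was slightly higher, at 10.78, 10.94 and 10.92 against 11.19, 11.14 and 11.12 (difference 0.27, adjusted p = 0.032), and lost its call with the covariate or without array A of PLS-123 (adjusted p = 0.089). Without array B of ibrutinib the calls of NOP14 and SRM were lost (adjusted p = 0.082 and 0.055).

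The promoters of UTP20 and SRM are shown for the E-box CACGTG, the letters that MYC and its partners read, searched in the same windows. The E-box was in 2030 of 27305 promoters (7.4%), in 8 of 13 lower ribosome genes (61.5%) and in 9 of 19 not called (47.4%). It therefore was frequent in the list, called or not. UTP20 is at chr12:101280059-101280104 on the plus strand and SRM at chr1:11060176-11060253 on the minus strand, with the E-box in capitals.
UTP20: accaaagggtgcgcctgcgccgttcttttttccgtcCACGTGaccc
SRM: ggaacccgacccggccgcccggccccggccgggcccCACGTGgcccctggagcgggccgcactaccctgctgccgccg

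Among 46 genes of mTORC1 and its nutrient inputs, 12 were lower and 4 higher, with 6 and 2 under the ACTB covariate. The mTOR-binding inhibitor DEPTOR stood at 10.88, 10.82 and 10.83 with ibrutinib and at 9.01, 9.08 and 9.09 with PLS-123 (3.44-fold, called in 1 of its 2 probe sets). SESN2, a leucine sensor that ATF4 and p53 induce, stood at 7.42, 7.58 and 7.73 against 6.36, 6.45 and 6.34. DDIT4, which restrains mTORC1 under stress, stood at 6.76, 6.53 and 6.57 against 5.67, 5.43 and 5.86. RRAGD, a Rag GTPase that brings mTORC1 to the lysosome (-1.08), and TFEB, the master factor of lysosome genes (-0.68), were also lower. RICTOR, the defining subunit of mTORC2, was higher (0.66), as was the AMPK catalytic subunit PRKAA1 (0.78), though not without array B of ibrutinib (adjusted p = 0.11). The lower members thus included both inhibitors and activators of mTORC1, and the MTOR transcript was not called (-0.19, interval -0.37 to -0.01).

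Of 24 PI3K, AKT and SGK genes, 7 were lower and 3 higher, against 3 and 2 with the ACTB covariate. SGK1, a kinase that PI3K activates in parallel to AKT, stood at 8.04, 7.86 and 8.06 with ibrutinib and at 5.62, 5.45 and 5.26 with PLS-123, by far the widest gap of this list. The adaptor IRS1 differed by -0.82 and the catalytic subunits PIK3CG and PIK3CB by -0.51 and -0.46. TCL1A, a co-activator of AKT, was higher (0.87), and so was the PI3K inhibitor PIK3IP1 (0.36, but adjusted p = 0.076 without array B of PLS-123). AKT1 was not called, at 7.53, 7.80 and 7.71 against 8.02, 7.90 and 7.82 (0.23, interval 0.04 to 0.43).

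The receptor module itself changed in both directions, with 15 of 36 genes lower and 8 higher, and a median of -0.19. With the ACTB covariate these counts were 8 and 5, and without array A of PLS-123 5 were higher. CD22, an inhibitory co-receptor, stood at 9.82, 10.03 and 9.93 with ibrutinib and at 7.93, 7.91 and 8.06 with PLS-123, in all 4 of its probe sets. VAV1, an exchange factor for Rac, stood at 8.13, 8.201 and 8.24 against 7.16, 7.04 and 7.06. The adaptor BLNK stood at 10.51, 10.39 and 10.35 against 9.52, 9.39 and 9.52. Members of 1 family differed in opposite directions: VAV1 was lower while VAV2 (0.47) and VAV3 (0.75) were higher, and the ubiquitin ligase CBL was lower (-0.43) while CBLB was higher (0.78).

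The kinases and phosphatases of the module differed among themselves. SYK stood at 10.09, 10.20 and 10.14 with ibrutinib and at 10.87, 10.88 and 10.95 with PLS-123, in all 4 probe sets (1.69-fold). The inhibitory phosphatase PTPN6 (SHP1, -0.51) and the inhibitory receptors SIGLEC10 (-0.99) and CD72 (-0.97) were lower, while the lipid phosphatase INPP5D was higher (0.41). BTK, the target of both compounds, stood at 9.09, 9.22 and 9.32 against 8.81, 8.73 and 8.82 (-0.42, adjusted p = 0.0051). Its substrate PLCG2 differed by -0.32 in 1 of 4 probe sets, and LYN by -0.30. All 3 of these small differences lost their call with the ACTB covariate, and PLCG2 (adjusted p = 0.12) and LYN (0.093) also without array C or array B of ibrutinib, in that order. CD79A was not called (-0.18, interval -0.37 to 0.01), and CD79B was slightly higher (0.34, but adjusted p = 0.059 without array A of PLS-123).

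Downstream, calcineurin and NFAT genes were lower in 5 and higher in 4 of 22. The catalytic subunit PPP3CC stood at 7.56, 7.78 and 7.71 with ibrutinib and at 6.86, 6.63 and 6.46 with PLS-123, in 2 of its 5 probe sets. NFATC1, a calcium-driven transcription factor, stood at 8.64, 9.03 and 8.99 against 8.15, 8.17 and 8.05, in 3 of its 5. Neither was called with the median over its probe sets. The calcium channel subunit ORAI2 (0.77) and the calcineurin inhibitor CABIN1 (0.71) were higher, and no arrays overlapped in PPP3CC or NFATC1.

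Among 36 Ras and ERK feedback genes, 9 were lower and 6 higher, and 6 and 2 with the ACTB covariate. The exchange factors that link diacylglycerol to Ras in lymphocytes stood out, with RASGRP3 at 6.59, 6.29 and 6.39 under ibrutinib and 4.35, 4.15 and 4.37 under PLS-123. RASGRP1 stood at 5.91, 5.97 and 5.80 against 4.45, 3.96 and 4.27. The Ras restraint genes SPRED1 (-1.07) and SPRED2 (-0.74) and the ERK phosphatase DUSP5 (-0.63) were lower too. Immediate early genes went both ways, since EGR1 (0.84) and JUN (0.66) were higher and IER2 was lower. FOS (0.01) and the phosphatase gene DUSP6 (-0.09) were not called, while DUSP2 was lower. EGR1 was near the dim level, at 3.68, 3.53 and 3.73 against 4.41, 4.84 and 4.22. Of 34 MAP kinase cascade genes, 6 were lower, led by the hematopoietic kinase MAP4K1 (-0.71), and 4 were higher, led by the stress gene GADD45A (1.49), and 28 intervals lay within 1.5-fold. Of the MAP kinase genes 3 were lower with the ACTB covariate or without array B of ibrutinib.

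The 26 genes that the study drew as a heatmap of falls under both compounds were chosen by it on these samples, so their direction is not independent evidence. Of them 23 were lower with PLS-123 than with ibrutinib at the same dose and 0 were higher, with a median of -0.88. The 3 not called were MDM2 (-0.41), NFAT5 (-0.31) and CCNE2 (0.04), and the sign of CCNE2 changes with the probe sets used.

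Genes of the germinal centre program were largely lower. Of 33 measured genes, 19 were lower and 5 higher with PLS-123, with a median of -0.39, and 15 and 4 with the ACTB covariate. BCL6, the repressor that defines the germinal centre state, stood at 11.91, 11.81 and 11.79 with ibrutinib and at 10.28, 10.33 and 10.33 with PLS-123 (2.88-fold, in all 3 probe sets). The octamer factor POU2F2 stood at 8.49, 8.84 and 8.64 against 7.30, 7.34 and 7.19, in all 7 probe sets. IRF8, a partner of the ETS factors of these cells, stood at 9.72, 9.86 and 9.80 against 8.79, 8.70 and 8.64. None of these groups of arrays overlapped, and the confinement receptors P2RY8 (-1.33) and S1PR2 (-0.57) were lower with them.

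Not all germinal centre genes went that way. MME, the surface enzyme CD10 that marks germinal centre B cells, stood at 9.25, 9.39 and 9.37 with ibrutinib and at 10.82, 10.83 and 10.82 with PLS-123. CD27, a receptor of memory and germinal centre B cells, stood at 8.86, 9.03 and 9.06 against 10.11, 10.18 and 10.09. The death receptor FAS was also higher (0.90), as was the octamer coactivator POU2AF1 (0.38). PAX5, the B-cell identity factor, was lower by a small amount (-0.32, but adjusted p = 0.097 without array C of ibrutinib), and BACH2 (-0.11) and MEF2C (-0.19) were not called.

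Plasma cell genes split as well. Of 20, 7 were lower and 2 higher, and the median was -0.014. TNFRSF17, the survival receptor BCMA, stood at 7.22, 7.24 and 7.21 with ibrutinib and at 5.34, 5.22 and 5.24 with PLS-123. IRF4, which drives plasma cell fate, stood at 8.33, 8.54 and 8.51 against 7.80, 7.73 and 7.43, in 1 of its 3 probe sets. PRDM1, a repressor that also drives plasma cell fate, was not called (-0.07). XBP1, the secretory factor, was higher (0.36), though not called without array C of ibrutinib (adjusted p = 0.071).

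Of 32 costimulatory, Toll-like and SLAM receptor genes, 11 were lower and 2, CD27 and SH2D1A, were higher. Beside CD28 and TLR10 the lower genes included the SLAM-family proteins CD48, at 10.12, 10.34 and 10.28 with ibrutinib against 8.92, 8.97 and 8.86 with PLS-123, SLAMF1 (-1.24) and CD84 (-0.74). The adaptor SH2D1A, which SLAMF1 and CD84 bind, was higher, so these 2 receptors and the adaptor differed in opposite directions. The nucleic acid sensor TLR9 was lower (-0.49), while TLR7 (-0.08) and the adaptor MYD88 (0.01) were not called.

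Receptors of migration were lower in 7 and higher in 5 of 37. PLEK, a protein kinase C substrate of the cytoskeleton (-2.57), and RAC2, a small GTPase of blood cells (-0.69), were lower. The lymph node homing receptors CCR7 (1.29) and CXCR4 (0.81) and the sphingosine 1-phosphate receptor S1PR4 (1.23) were higher, while CXCR5 (-0.13) was not called. CCR7 was dim with ibrutinib, at a mean of 2.89, and averaged 4.18 with PLS-123. Of 19 MHC class II genes, 5 were lower and 4 higher, and 3 and 3 with the ACTB covariate. HLA-DOB, which tempers peptide loading in B cells, stood at 5.94, 6.25 and 6.31 with ibrutinib and at 4.37, 4.76 and 4.35 with PLS-123, in 1 of its 2 probe sets. The main presenting chain HLA-DRA differed by -0.04. CD74, the invariant chain, has probe sets called in opposite directions and is uncertain, and class II genes of near-identical sequence can share signal.

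Genes that hold cells at rest were the list with the most rises. Of 33 FOXO, KLF and quiescence genes, 11 were higher and 4 lower with PLS-123, with a median of 0.14, and 9 and 2 with the ACTB covariate. TXNIP, an inhibitor of thioredoxin and of glucose uptake, stood at 6.63, 6.64 and 6.86 with ibrutinib and at 8.44, 8.48 and 8.30 with PLS-123, in all 3 probe sets. IL7R, the interleukin-7 receptor, stood at 8.81, 8.99 and 8.73 against 10.39, 10.29 and 10.27. The mRNA decay factor ZFP36L2 (1.17), KLF2 (0.84), which controls lymphocyte trafficking, and the antiproliferative gene BTG1 (0.62) were higher as well. BCL6, which FOXO factors induce, was in this list and lower, as were the glucocorticoid-responsive TSC22D3 (-0.87) and FOXO1 (-0.32), the latter not without array B of ibrutinib (adjusted p = 0.082).

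The promoters of TXNIP and BTG1 are shown for GTAAACA, the FOXO core, which in BTG1 reads TGTTTAC on the opposite strand. These letters were in 931 of 27305 promoters (3.4%), in 3 of 10 higher genes of the list (30%), in 1 of 17 not called (5.9%) and in 0 of 4 lower ones. With so few promoters in each class the shares are a description only. Both lie on the minus strand, TXNIP at chr1:145996661-145996739 and BTG1 at chr12:92146013-92146091.
TXNIP: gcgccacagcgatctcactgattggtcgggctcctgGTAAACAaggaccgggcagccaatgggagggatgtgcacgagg
BTG1: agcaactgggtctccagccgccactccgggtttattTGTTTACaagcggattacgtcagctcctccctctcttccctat

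Regulators of the entry into S phase were lower in part. Of 25 G1 genes, 8 were lower and 1 higher, and 4 and 1 with the ACTB covariate. The D-type cyclin CCND3 stood at 10.63, 10.88 and 10.83 with ibrutinib and at 9.63, 9.64 and 9.59 with PLS-123, in 1 of its 2 probe sets. Its partner CDK6 (-0.64), cyclin E1 (CCNE1, -0.67, in 1 of its 2 probe sets) and the activating factors E2F1 (-0.47) and E2F2 (-0.58) were lower. CDKN1B, the inhibitor p27 and a target of FOXO factors, was the 1 higher gene, at 7.68, 7.14 and 7.25 against 8.87, 8.53 and 8.75. The inhibitor CDKN1A (p21) was not called (-0.10).

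Differences among the replication genes were small, with 38 of 40 intervals within 1.5-fold. Of these 40, 5 were lower, including the initiation factors CDC45 (-0.28) and GINS3 (-0.35), and 1, PCNA (0.38), was higher, while with the ACTB covariate 0 were called, and MCM10 has probe sets called both ways. Of 40 mitosis genes, 8 were lower and 3 higher, or 2 and 2 with the covariate. The mitotic kinases AURKA (-0.60) and PLK1 (-0.41) and cyclin B1 (CCNB1, -0.45) were lower, and the checkpoint kinase BUB1 (0.70) and topoisomerase TOP2A (0.44) were higher. CCNB1 was called in 1 of its 2 probe sets and BUB1 in 2 of 5, and neither with their median. The proliferation antigen gene MKI67 stood at 9.48, 9.82 and 9.72 with ibrutinib and at 9.41, 9.21 and 9.26 with PLS-123, in 1 of 4 probe sets, and lost its call with the covariate. Without array B of ibrutinib the calls of MKI67 (adjusted p = 0.084), CDC45 (0.16), PCNA (0.11), PLK1 (0.066) and TOP2A (0.053) were lost. CDK1 (-0.01) and AURKB (0.00) were not called.

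A few of the cell death genes differed, in both directions. Of 14 pro-apoptotic BCL2 family genes, 4 were higher and 3 lower, and 4 and 1 with the ACTB covariate. HRK, a BH3-only protein, stood at 8.66, 8.81 and 8.70 with ibrutinib and at 10.03, 9.88 and 9.87 with PLS-123, in 4 of its 5 probe sets. BMF stood at 5.86, 6.01 and 6.14 against 6.66, 6.67 and 6.51, and BCL2L11 (BIM), a FOXO target, differed by 0.47. BAX, the pore-forming effector, was lower, at 7.47, 7.67 and 7.71 against 7.07, 7.07 and 7.04, and lost its call with the covariate. The BH3-only genes were themselves split, since BAD (-0.46) and BID (-0.41) were lower.

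Of 11 anti-apoptotic genes MCL1 was lower, at 10.41, 10.63 and 10.53 with ibrutinib and 10.12, 10.09 and 10.18 with PLS-123, and BIRC2 was higher (0.26), and neither held its call with the covariate. All 11 intervals lay within 1.5-fold. BCL2 was not called at its brightest probe set (-0.18, interval -0.38 to 0.03), although 1 of its 4 probe sets was called higher. Of 23 death receptor and caspase genes, 5 were higher, including FAS and the caspases CASP8 (0.58), CASP4 (0.41) and CASP1 (0.36), and the adaptor FADD was lower (-0.43). CASP8 stood at 7.55, 7.03 and 6.94 with ibrutinib and at 7.85, 7.57 and 7.83 with PLS-123, with array A of ibrutinib close to the PLS-123 arrays. The calls of CASP8 (adjusted p = 0.16 without array C of ibrutinib), CASP1 (0.11 without array B) and BIRC2 (0.084 without array B) were lost that way, and those of CASP8 and CASP4 also with the median over probe sets. With the covariate 3 caspase and death receptor genes were higher. Of 24 p53 target genes, 5 were lower and 3 higher, and 3 and 3 with the covariate. TP53INP1 was the widest (2.31), in 1 of its 3 probe sets, and neither CDKN1A nor MDM2 was called.

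A further list held the transcripts of 16 proteins that were also assayed by blot, ELISA, PCR or stain. Of these 16 genes, 5 were lower (BAX, BTK, MCL1, MKI67 and PLCG2) and CASP8 was higher, and all 6 lost their call with the ACTB covariate. PTPN11, the phosphatase SHP2, stood at 11.14, 10.84 and 10.88 with ibrutinib and at 10.84, 10.87 and 11.05 with PLS-123 at its brightest probe set. There the groups overlapped (difference -0.03, interval -0.24 to 0.17), whereas 2 of its 6 probe sets were called lower. Among 18 tyrosine phosphatases, 4 were lower (1 with the covariate) and 3 higher, the latter being PTPRE, PTPN3 (1.32) and PTPRO (0.56), the last in 1 of its 3 probe sets and with a median over them of -0.079. Of 10 kinases named as bound by ibrutinib or by compounds related to PLS-123, LCK (-0.65) and BTK were lower, BTK not with the covariate, 0 were higher, and BLK (-0.01) and ABL1 (-0.22) were not called.

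NF-κB genes showed no common direction, with 8 of 36 lower and 6 higher, or 6 and 3 with the ACTB covariate. The non-canonical subunits RELB, at 6.72, 6.91 and 6.92 with ibrutinib and 5.86, 5.84 and 5.70 with PLS-123, and NFKB2 (-0.66) were lower, as was the signalling adaptor TRAF1 (-1.39). The inhibitor NFKBIA was higher, at 8.73, 9.08 and 8.87 against 9.61, 9.60 and 9.58, and REL (0.42) was higher too. The canonical subunit NFKB1 was not called (0.10).

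Interferon-stimulated genes were higher in 7 and lower in 2 of 35, or 6 and 1 with the ACTB covariate, with a median of 0.14. IRF1 stood at 6.64, 6.80 and 6.56 with ibrutinib and at 7.69, 7.71 and 7.59 with PLS-123. The antiviral GTPase MX1 stood at 5.40, 5.52 and 5.30 against 6.30, 6.19 and 6.08, without overlap. MX2 (0.74), the RNA sensor RIGI (0.74) and OAS1 (0.39) were higher, whereas IFI44 (-0.02) and IFIT1 (0.08) were not called and ISG15 was lower (-0.32, but adjusted p = 0.12 without array C of PLS-123). MX2 was dim with ibrutinib, at a mean of 3.16, and averaged 3.90 with PLS-123.

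Stress and metabolic lists showed calls in both directions. Of 28 NRF2 genes, 5 were lower and 1 higher, or 3 and 0 with the ACTB covariate, SLC7A11 being the largest, while the marker genes NQO1 (-0.13) and HMOX1 (-0.06) were not called. In the unfolded protein response 8 of 24 were lower and 3 higher, led by DDIT3 and the phosphatase subunit PPP1R15A (-0.89), both also downstream of ATF4, and the chaperone HSPA5 was not called (-0.12). Those counts were 4 and 2 with the ACTB covariate. Of 18 heat shock genes, 3 were lower and 1 higher, or 1 and 0 with the covariate, with 15 intervals within 1.5-fold, and HSPA6 and HSPH1 were not called.

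Of 31 cholesterol and fatty acid genes, 3 were lower and 2 higher (3 and 1 with the ACTB covariate), the fatty acid elongase ELOVL6 (1.54) by far the most, and 28 intervals lay within 1.5-fold. Glycolysis and hypoxia genes were split, 8 lower and 7 higher of 33, and 4 and 5 with the ACTB covariate. Without array B or array C of ibrutinib 4 of them were lower, and 5 without array C of PLS-123. Enolase 2 (ENO2) stood at 6.67, 6.78 and 6.83 with ibrutinib and at 5.58, 5.59 and 5.57 with PLS-123, and the glucose transporter SLC2A3 was lower (-0.57). The vasoactive peptide gene ADM went the other way, from 3.90, 4.16 and 3.59 to 5.52, 5.53 and 5.53, and the transporter SLC2A1 was higher (0.48). Of 36 lysosome and autophagy genes, 9 were lower and 2 higher, or 4 and 2 with the covariate. The protease CTSH was the exception in size, at 7.11, 7.28 and 7.16 with ibrutinib and 9.21, 9.05 and 8.88 with PLS-123.

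**Figure D5:**
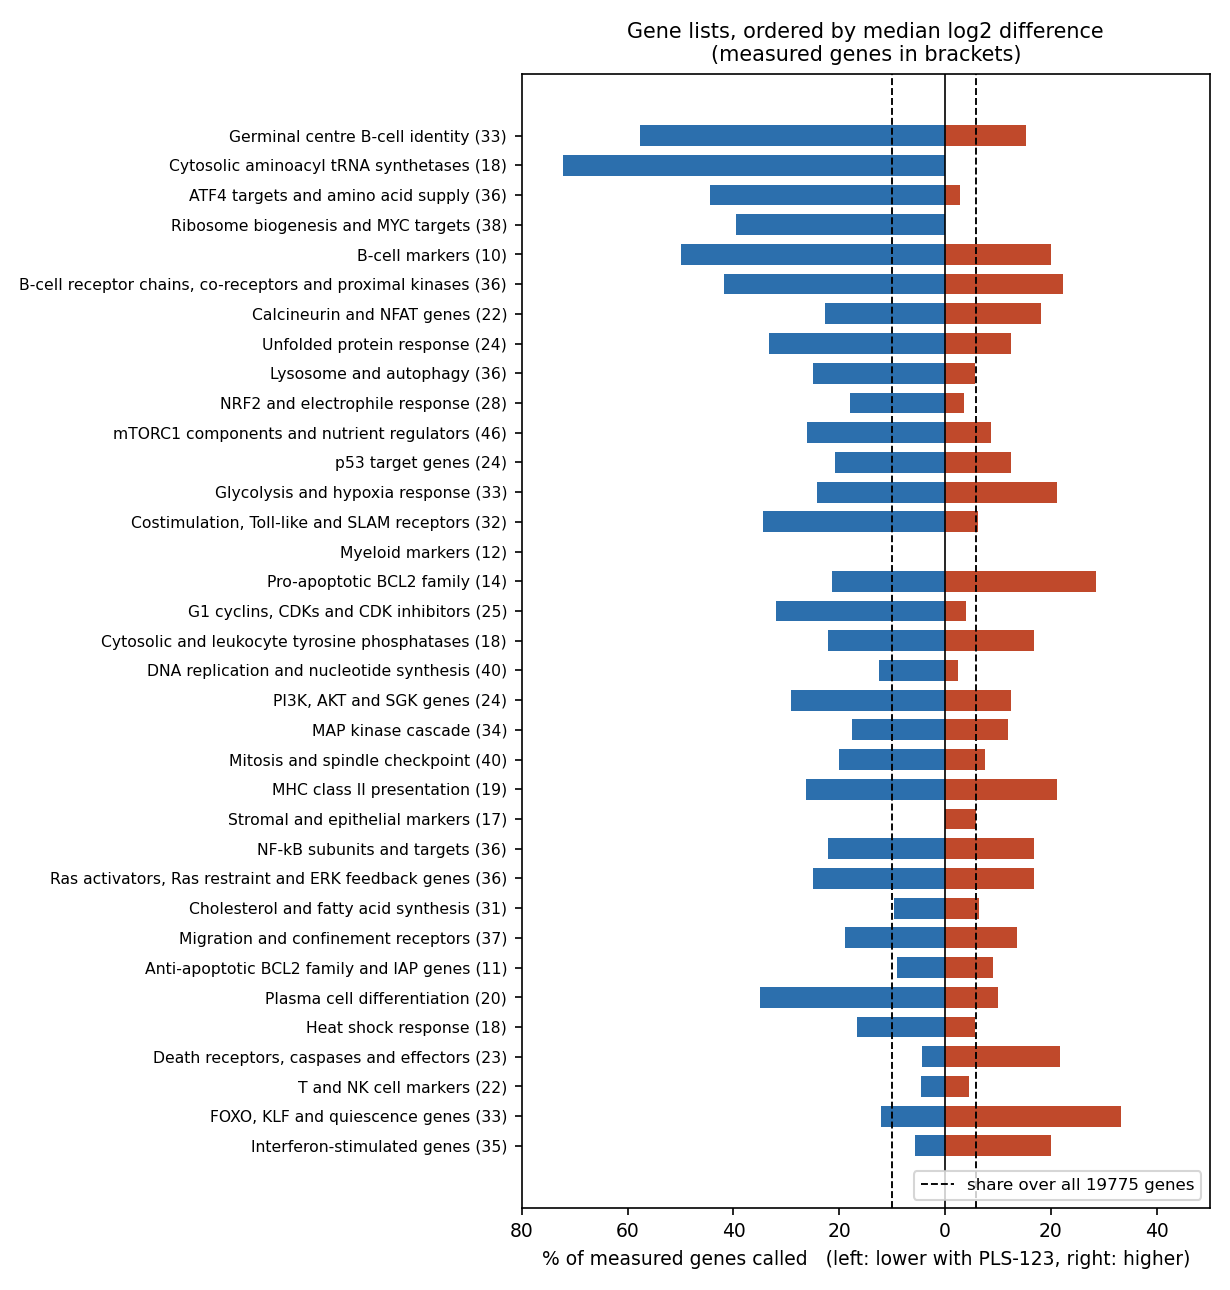
Share of the measured genes of each list that were lower (left) and higher (right) with PLS-123 than with ibrutinib at 1 μM, in percent, lists ordered by their median difference, with dashed lines at the shares over all genes, 10.1 and 5.78. The tRNA synthetases and the germinal centre genes reach furthest to the left, and the quiescence genes are among those that reach furthest to the right. Lists of the study's heatmap genes, assayed proteins and kinases are not drawn, and the dashed lines count dim genes too.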

How the data were processed

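RNA of OCI-Ly7 cells treated for 24 hours was hybridised to 12 arrays, 3 per group. The values used are intensities that the authors deposited in the series matrix, per the labels made with RMA (background correction, quantile normalization, probe set summary) and stored on a linear scale. The version of the software is not given in the sources used here. Array medians were 14.2 to 14.8, and the number of arrays limits the precision. No depth applies.

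The intensities were put on the log2 scale with no pseudocount and no filter, and 62 control probe sets were left out. limma 3.58.1 (R 4.3.3) fitted 1 mean per group over all 12 arrays, and the contrast of PLS-123 against ibrutinib at 1 μM was tested with moderated variances and Benjamini-Hochberg adjustment over 54613 probe sets. Of these, 41091 carried 1 gene symbol, 1801 several and 11721 none in the platform annotation, and genes were named only from the first kind. A gene was read from its brightest probe set, and how many of its probe sets were called is given for some genes only. The scripts were tested on simulated data.

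The comparison, the gene lists (910 of 989 genes measured) and the motifs were chosen with earlier results of these data known. Genes were named by rule: the 15 largest rises and falls among called genes whose groups did not overlap and that were not dim in the higher group, in each list up to 4 called members with the smallest adjusted p and up to 2 members that were not dim with the interval nearest to 0, and the genes of the study's heatmap, protein assays and kinase panel, with genes whose probe sets were called in opposite directions given as uncertain. Other list members were named for their role after their values were seen. Alternatives were the methods' t-test, the 2 groups alone, limma-trend, a block on the replicate letter, quantile normalization, centring on the control probe sets, a filter against dim ones, reading each gene from 1 probe set or from the median of its probe sets, the ACTB ratio as covariate, and each array left out.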

Additional observations from a re-analysis of the deposited data

How the results depend on the processing

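Counts of lower and higher probe sets, 4333 and 2502, were 1103 and 731 with the methods' t-test, 2453 and 1317 with 1 probe set per gene, and 1695 and 1279 with the ACTB ratio as covariate. From the 2 groups alone 2792 were lower. With each array left out in turn the lower count ranged from 2698 (without array B of ibrutinib at 1 μM) to 5092 and the higher count from 1782 to 2832, and in all 6835 became 4599 to 7924. Past 1.5-fold, 1 probe set per gene gave 449 lower and 505 higher, and leaving out an array gave 976 to 1371 and 1092 to 1382. Intervals within 1.5-fold numbered 21284 without dim probe sets, 16844 with 1 probe set per gene, and 42333 to 46285 with an array left out. Of the distinct list genes 223 were lower and 103 higher, and these were 96 and 43 with the t-test. With the covariate 123 were lower, and with an array left out 170 to 248 were lower and 81 to 108 higher. The t-test borrows no variance across probe sets, 1 probe set per gene and the filter on dim ones test fewer features, and the 2 groups alone hold fewer arrays. The cause of the other changes was not tested. With the median over a gene's probe sets, genes near 0 changed sign: BIRC5 (0.05 to -0.21), CASP2 (-0.01 to 0.31), CCNE2 (0.04 to -0.44), CENPF (-0.01 to 0.41) and NOLC1 (0.03 to -0.48), and so did PTPRO (0.56 to -0.079). The replicate letters did not pair the samples (correlations of the deviations 0.224, 0.105 and -0.159 for A, B and C), and a block on them gave 3979 lower and 2374 higher. Of 154 named genes that were called, 52 lost their call with the t-test, 21 with the covariate, 19 with the median over probe sets and at most 9 with any 1 array left out. Intensities at the dim end set a limit on fold changes, since 50.1% of all probe sets and 21% of those called higher were dim with ibrutinib.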

Other observations

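Some gene families outside the lists of the report were looked at after their values had been seen. They are given as values with no test beyond the call of each gene. Over all genes, dim ones included, 10.1% were lower and 5.78% higher. All 4 ID genes, inhibitors of basic helix-loop-helix factors that BMP signals induce, were higher with PLS-123 than with ibrutinib at 1 μM: ID1 by 2.87, ID2 by 1.27, ID4 by 0.70 and ID3 by 0.68 on the log2 scale. Of 8 SMAD genes, which carry BMP and TGF-β signals to the nucleus, 4 were higher, with the inhibitory SMAD7 (1.63) and SMAD6 (1.25) and the BMP-responsive SMAD1 (1.14) in the lead. SMAD3, of the TGF-β branch, was lower (-0.43). Of 8 BMP and activin receptor genes, BMPR1B and ACVR1 (0.36, but adjusted p = 0.17 in limma without array A of PLS-123) were higher and 0 were lower.

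The AKT co-activator genes of the TCL1 locus were higher together, TCL1A by 0.87, TCL1B by 1.23 and the non-coding TCL6 by 1.31. Clustered core histone genes were higher in 16 and lower in 1 of 36, with a median of 0.37. Their mRNAs mostly lack poly(A) tails and their sequences are alike, so single members are uncertain. KLRC4 (1.98) and KLRC3 (1.46), receptor genes of natural killer cells that share sequence, were both higher, and KLRC3 was dim. YPEL genes, linked to arrest of growth, were higher in 3 of 5, led by YPEL2 (1.80), and YPEL5 was lower (-0.28, but adjusted p = 0.11 without array C of ibrutinib). The pseudokinase TRIB2 was higher by 2.47. Among 21 ETS factor genes, 3 were higher, ELK3 (1.90), ETV6 (1.69) and ETS1 (0.54, with probe sets called both ways), and 4 were lower, ELK4 (-0.73), SPIB (-0.52), ETV4 (-0.47) and ELF4 (-0.30), the last 2 not called without array C (adjusted p = 0.056) or array B (0.092) of ibrutinib. The median of these 21 genes was -0.052. Their counts were close to the shares called among probe sets that were not dim, so they are not read as a result about the family.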
